A study of Bos taurus with 88 samples.

Results

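The 6 genes described here were picked for large rises in whole blood of newborn calves between 0 h and 48 h of age. They were selected on that measured rise in these same libraries, so their 48 h versus 0 h values are given as a description with no test. They are 6 of the 24616 genes in the count files, of which 21250 had a count in at least 1 library. The genes are ENSBTAG00000011467, ENSBTAG00000001725, ENSBTAG00000016698, ENSBTAG00000015350, ENSBTAG00000022150 and ENSBTAG00000008021. Their names and roles are not given because no table used here pairs Ensembl identifiers with symbols (0 of 37063 reference genes carry an Ensembl identifier), and for the same reason no sequences are shown and the blood label could not be checked against marker genes of blood cells.

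Blood was drawn from 22 calves at 0, 48, 72 and 168 h after birth, and every calf was present at every age, which gives 88 mRNA-seq libraries. The 8 H calves were Holstein dairy calves, kept apart from the dam on another farm than the beef calves. They were fed the dam's colostrum artificially, at 5% of body weight for the first feed. Between the 72 h and 168 h samples they moved from single pens to a group pen and from colostrum to milk replacer. The 7 CL calves were born to Charolais × Limousin cows and the 7 LF calves to Limousin × Friesian cows, both groups suckled the dam, with Aberdeen Angus or Charolais sires. Breed therefore means the breed of the cow. The 0 h sample preceded the first feed in all groups. Breed, farm, feeding and housing cannot be told apart in a comparison of H with CL or LF calves. In H calves age and the change of feed and pen cannot be told apart at 168 h versus 72 h.

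A calf is born with almost no antibody of its own in the blood, because the bovine placenta passes little or none from the dam, and takes up maternal antibody and cells from colostrum through the gut during the first day. Over the same days the mix of red cell precursors, neutrophils, monocytes, lymphocytes and platelets in the circulation changes. Whole blood measures all of these cells together, and in such bulk samples fewer cells of a type and less RNA per cell cannot be told apart.

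Library depth, as reads on genes, was 10023822 to 39304404 (median 22595526.5), and 3 counts corresponded to between 0.0763 and 0.299 CPM (the count of a gene per 1000000 reads on genes). Reads on genes made up 26.1% to 69.4% of all reads of a library. Within a group of 1 breed and age, none of the 280 pairs of libraries was identical and each differed by more than sampling noise. Libraries of different groups were not compared in this way. Levels below are CPM scaled by the trimmed mean of M values (TMM) over all 88 libraries. They follow 1 gene through ages and breeds and are not compared between genes, because gene lengths were not used.

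At 0 h the levels of the 6 genes were low in all 3 breeds, with group medians between 0.0393 and 0.57 CPM. The largest count of any of them at 0 h was 60, for ENSBTAG00000001725 in H calf 5. For ENSBTAG00000016698 all 7 CL calves had 3 counts or fewer at 0 h, and 2 of them had 0. Fold changes from 0 h therefore rest on small denominators.

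The values that chose the genes are given by breed. The 48 h versus 0 h log2 fold changes were 4.91 in H, 4.70 in CL and 8.17 in LF calves for ENSBTAG00000011467, the largest rise in H and in LF among genes that were called and higher in every calf. ENSBTAG00000001725 followed with 4.38, 4.36 and 7.92. The values for ENSBTAG00000016698 were 3.29, 4.87 and 5.63. ENSBTAG00000015350 had 3.17, 4.88 and 3.94. These 4 genes were thus at least 8.98-fold higher at 48 h in each breed, and higher in 22 of 22 calves.

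ENSBTAG00000022150 was of another kind. Its log2 fold change was 5.14 in CL, the largest rise there by the same count, but 0.87 in LF, where 5 of 7 calves were higher at 48 h, and in H it was too low to enter the fit. ENSBTAG00000008021 had 4.54 in H, 1.53 in CL and 3.67 in LF calves and was higher at 48 h in 22 of 22 calves. By way of background, 3.97% of the 12508 genes tested in H, 7.03% of 12852 in CL and 7.37% of 12794 in LF calves were called higher at 48 h, where a call needs an adjusted p under 0.05 together with at least a 1.5-fold change. Since the selection used this contrast, nothing is read from these shares.

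The genes just outside the set show where it ends. In H calves the rise of ENSBTAG00000014628 was 4.46 on the log2 scale, above the 4.38 of ENSBTAG00000001725, and is not among the 6. In CL calves the rise of ENSBTAG00000014824 was 4.49, between the 4.70 of ENSBTAG00000011467 and the 4.36 of ENSBTAG00000001725. In LF calves the rise of ENSBTAG00000014113 was 5.60, next to 5.63 for ENSBTAG00000016698. The set is therefore not a strict top list of any breed.

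**Figure D1:**
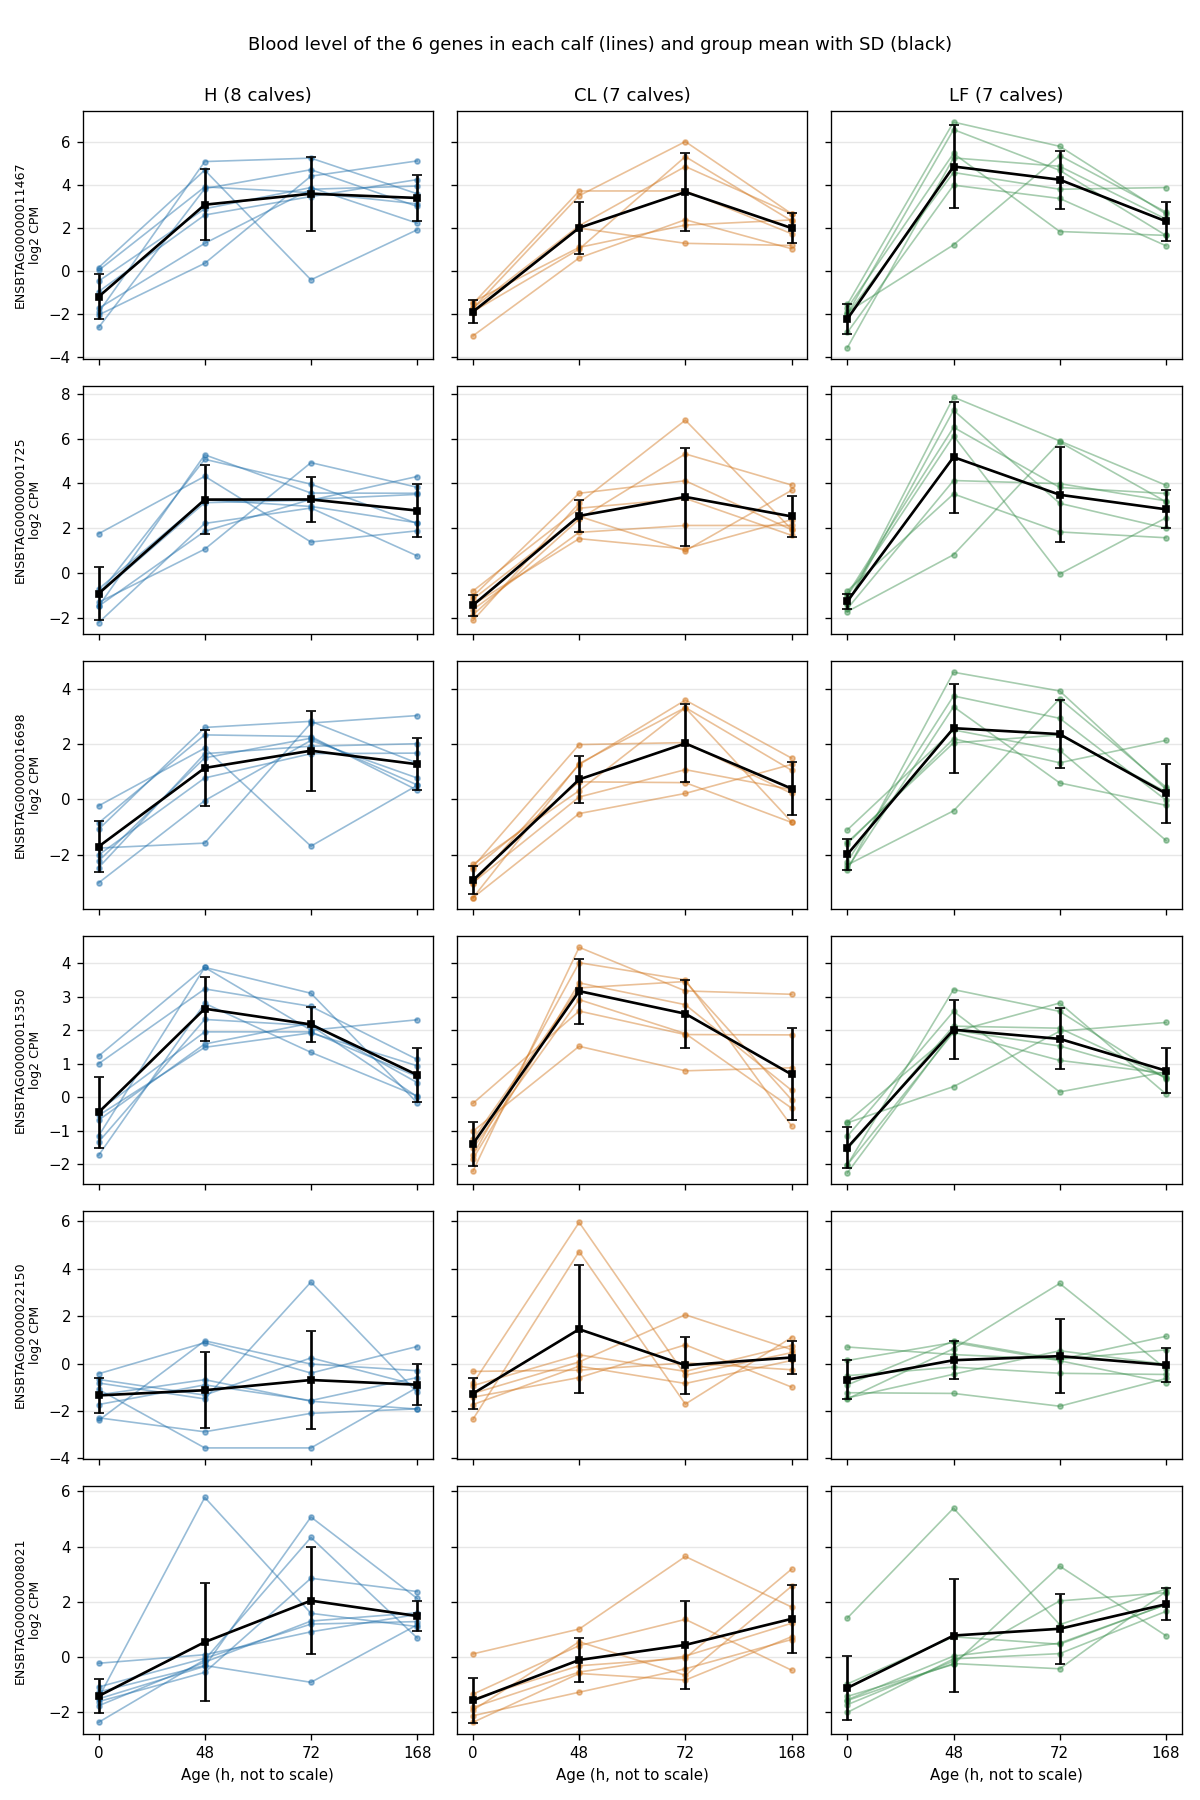
Level of each of the 6 genes (rows, log2 CPM with a prior count of 2) against age in h for H, CL and LF calves (columns). Thin lines are single calves and black squares are the group mean with its SD. The upper 3 genes run alike within a breed, ENSBTAG00000015350 is highest at 48 h in most calves, and the lower 2 genes have single calves far above the rest.

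ENSBTAG00000011467, ENSBTAG00000001725 and ENSBTAG00000016698 followed similar courses within each breed. In LF calves their means were highest at 48 h and lower at each later age. In CL calves they were modest at 48 h and highest at 72 h. In H calves the means at 168 h were 100%, 59% and 100% of those at 48 h, while the median ratios within a calf were 0.6, 0.418 and 0.888. Differences between breeds in the course were tested only from 72 h to 168 h. Single calves departed from these courses.

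For ENSBTAG00000011467 the LF calves ran from 2.26 through a median of 38.8 to 123.1 CPM at 48 h, a mean of 49.4 ± 44.3 (SD, n = 7). At 72 h they ran from 3.51 through 25.9 to 56.2 CPM (mean 25.9 ± 18.6, n = 7), and at 168 h from 2.19 through 5.29 to 14.8 CPM (mean 5.92 ± 4.28, n = 7). The mean at 168 h was 12% of that at 48 h. Even so, each of the 7 LF calves remained above its own 0 h level, which had not exceeded 0.257 CPM.

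In CL calves the same gene ran from 1.45 through 3.95 to 13.3 CPM at 48 h (mean 5.47 ± 4.82, n = 7). It ran from 2.38 through 13.3 to 65.8 CPM at 72 h (mean 23 ± 23.7, n = 7) and from 1.99 through 5 to 6.31 CPM at 168 h (mean 4.32 ± 1.82, n = 7). The spread was widest at 72 h, where CL calf 5 held 40.9% of the summed level, and narrowest at 168 h. The ages overlapped.

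H calves had 1.21 to 34.5 CPM at 48 h with a median of 10.9 (mean 13.4 ± 11.8, n = 8). At 72 h the range was 0.673 to 38.4 CPM with a median of 14.4 (mean 17.4 ± 11.4, n = 8), and at 168 h it was 3.72 to 35.3 CPM with a median of 10.4 (mean 13.4 ± 10.3, n = 8). The H mean at 168 h thus equalled 100% of that at 48 h, but 5 of 8 calves were lower at 168 h. The median ratio within a calf was 0.6, and H calf 3 held 32.9% of the summed 168 h level. The lowest H calf at 72 h was calf 5, the only one of the 22 calves below its own 0 h level at that age.

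In LF calves ENSBTAG00000001725 was highest at 48 h, between 1.67 and 231.9 CPM with a median of 69.8 (mean 82.5 ± 85.2, n = 7). By 72 h the LF calves ran from 0.878 through 14.1 to 59.8 CPM (mean 22.9 ± 25, n = 7) and by 168 h from 2.88 through 8.95 to 15 CPM (mean 8.16 ± 4.37, n = 7). The mean at 72 h was 27.7% and that at 168 h 9.88% of the 48 h mean. LF calves 6 and 2 together held 66.9% of the summed 48 h level, and the mean without LF calf 6 was 57.6 CPM.

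In CL calves ENSBTAG00000001725 ran from 2.79 through 5.69 to 11.7 CPM at 48 h (mean 6.39 ± 3.11, n = 7). At 72 h it ran from 1.9 through 9.96 to 113.5 CPM (mean 27 ± 40.4, n = 7), and 60.1% of that sum came from CL calf 5. Without this calf the 72 h mean was 12.5 CPM. At 168 h the CL range was 3.12 to 15.1 CPM with a median of 4.26 (mean 6.85 ± 4.95, n = 7), so its mean was back near the 48 h value.

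H calves had 2 to 38.7 CPM of this gene at 48 h with a median of 9.15 (mean 15.1 ± 14.2, n = 8). At 72 h they had 2.52 to 30.4 CPM with a median of 9.56 (mean 11.8 ± 8.39, n = 8), and at 168 h 1.61 to 19.8 CPM with a median of 7.95 (mean 8.91 ± 6.3, n = 8). The medians differed little and the ages overlapped throughout. At 168 h all 22 calves were above their 0 h level.

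ENSBTAG00000016698 rested on 6 to 729 reads per library at 48 h. In LF calves it ran from 0.667 through 5.66 to 24.3 CPM at 48 h (mean 8.96 ± 7.96, n = 7), from 1.43 through 4.98 to 15.1 CPM at 72 h (mean 6.77 ± 5.25, n = 7) and from 0.274 through 1.13 to 4.31 CPM at 168 h (mean 1.41 ± 1.32, n = 7). LF calf 4 was below its 0 h level at 168 h, the only calf of 22. In CL calves the means were 1.83 ± 1.12 CPM at 48 h, 5.79 ± 4.69 at 72 h and 1.47 ± 0.898 at 168 h (SD, n = 7 each). The H means were 2.9 ± 1.97, 4.3 ± 2.13 and 2.9 ± 2.34 CPM at these ages (SD, n = 8 each).

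Among 48, 72 and 168 h, the age of the highest level in a calf was largely the same for these 3 genes. ENSBTAG00000011467 and ENSBTAG00000016698 shared it in 21 of 22 calves, and all 3 genes shared it in 17 of 22. For ENSBTAG00000011467 the highest level fell at 48 h in 6 of 7 LF calves but 1 of 7 CL calves, at 72 h in 5 of 7 CL calves, and at 48, 72 and 168 h in 2, 3 and 3 of the 8 H calves. LF calf 5 was the exception in its breed, with 2.26 CPM at 48 h and 41.8 CPM at 72 h. H calf 3 was also late, with 1.21, 21.4 and 35.3 CPM at 48, 72 and 168 h. H calf 5 went the other way, from 26.1 CPM at 48 h to 0.673 CPM at 72 h.

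Levels of the same calves at 48 h and at 72 h were compared by correlation, and a difference between breeds was not tested. With breed means subtracted, the correlation between these ages over 22 calves was 0.00 for ENSBTAG00000011467 and ENSBTAG00000016698 and -0.05 for ENSBTAG00000001725, given as a description because the 48 h level chose the genes. In CL calves alone these were 0.40, 0.56 and 0.61, in H calves -0.24, -0.23 and -0.32 and in LF calves -0.03, -0.08 and -0.17. ENSBTAG00000015350 had 0.44 over all calves, with 0.43 in H, 0.89 in CL and -0.05 in LF calves.

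**Figure D2:**
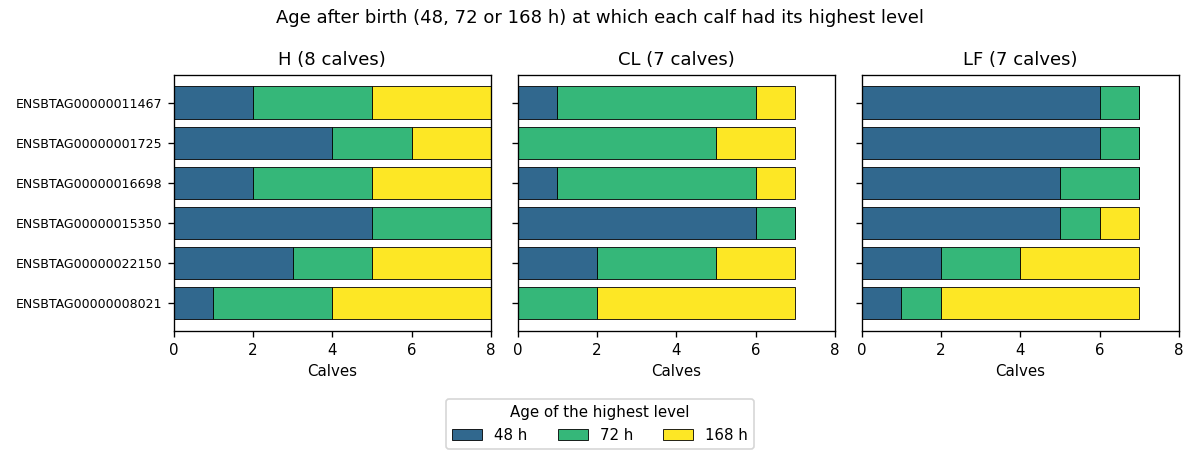
Number of calves (x axis) whose highest level of a gene among 48, 72 and 168 h fell at each age, for H, CL and LF calves. For the upper 3 genes 72 h leads in CL and 48 h leads in LF calves, while ENSBTAG00000015350 peaked at 48 h in 16 of 22 calves and ENSBTAG00000008021 at 168 h in 14 of 22.

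ENSBTAG00000015350 had the earliest and most regular course. Its highest level fell at 48 h in 5 of 8 H, 6 of 7 CL and 5 of 7 LF calves. At 168 h it was below its 48 h level in 21 of 22 calves, the exception being LF calf 2, and above its 0 h level in 21 of 22.

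In H calves ENSBTAG00000015350 ran from 2.72 through 5.9 to 14.6 CPM at 48 h (mean 7.45 ± 4.88, n = 8), from 2.45 through 4.11 to 8.5 CPM at 72 h (mean 4.71 ± 1.9, n = 8) and from 0.81 through 1.36 to 4.86 CPM at 168 h (mean 1.78 ± 1.33, n = 8). In CL calves it ran from 2.78 through 9.47 to 22.1 CPM at 48 h (mean 10.6 ± 6.56, n = 7), from 1.64 through 6.67 to 11.2 CPM at 72 h (mean 6.64 ± 3.81, n = 7) and from 0.47 through 1.07 to 8.33 CPM at 168 h (mean 2.39 ± 2.81, n = 7). The LF calves had the lowest mean at 48 h, from 1.16 through 3.92 to 9.16 CPM (mean 4.55 ± 2.45, n = 7), followed by a mean of 3.79 ± 2.07 at 72 h and 1.86 ± 1.22 CPM at 168 h. The 168 h mean was 23.8%, 22.6% and 40.8% of the 48 h mean in H, CL and LF calves. CL calf 1, with 8.33 CPM, held 49.7% of the CL sum at 168 h, and the mean without it was 1.4 CPM.

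The high 48 h mean of ENSBTAG00000022150 in CL calves came from 2 animals. CL calf 4 had 62 CPM and CL calf 2 had 26.5 CPM at 48 h, together 95.3% of the summed CL level, and the other 5 CL calves had 0.581 to 1.21 CPM. The CL median at 48 h was 0.962 CPM beside a mean of 13.3 ± 23.5 (SD, n = 7), and without calf 4 the mean was 5.14 CPM. At 72 h these same calves were back at 0.625 and 0.222 CPM.

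In the other breeds the gene stayed low at 48 h. H calves had 0 to 1.86 CPM with a median of 0.382, and LF calves had 0.334 to 1.85 CPM with a median of 1.22. Single calves stood out later. H calf 7 had 10.8 CPM at 72 h, 76.5% of the H sum, and LF calf 4 had 10.3 CPM at 72 h, 65.9% of the LF sum. At 168 h no calf of any breed exceeded 2.14 CPM, and the medians were 0.43 in H, 1.29 in CL and 0.776 CPM in LF calves.

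The same form, a low level with a high one in a single animal, held for ENSBTAG00000008021. H calf 4 had 54.7 CPM at 48 h, 90.8% of the H sum, while the next highest H calf had 0.972 CPM. LF calf 1 had 41.9 CPM at 48 h, 88% of the LF sum, while the next had 1.57 CPM. Without these calves the 48 h mean was 0.788 in place of 7.52 CPM in H and 0.949 in place of 6.8 CPM in LF, beside the 0.966 ± 0.567 CPM of the 7 CL calves. Both calves had 2.9 CPM or less at 72 h.

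Other calves were high at 72 h. H calves 3, 8 and 7 had 33.4, 20 and 7.13 CPM, CL calf 7 had 12.4 CPM and LF calf 3 had 9.71 CPM. The median at 72 h was 2.64 CPM in H, 0.886 in CL and 1.33 in LF calves.

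Beneath these single high values the median of ENSBTAG00000008021 was higher at each later age in both beef groups. In LF calves it went from 0.257 CPM at birth through 0.867 and 1.33 to 3.65 CPM at the last age. In CL calves the same 4 medians were 0.197, 0.715, 0.886 and 2.24 CPM. The highest level of a calf fell at 168 h in 4 of 8 H, 5 of 7 CL and 5 of 7 LF calves, and at 48 h in only 2 of 22. At 168 h the SD was smaller than at 72 h in each breed, with means of 2.9 ± 1.2 in H (n = 8), 3.45 ± 2.98 in CL and 3.92 ± 1.34 CPM in LF calves (SD, n = 7 each).

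The decay from 72 h to 168 h was tested with edgeR's quasi-likelihood test, since neither age had been used to choose the genes. The same calves were sampled at both ages, but this pairing entered only the alternative fit with the calf as a block. ENSBTAG00000015350 fell in H calves, and ENSBTAG00000011467 and ENSBTAG00000016698 fell in LF calves. No other change of the 6 genes passed this test in any breed.

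In H calves 1 of 6 genes was a DEG at 168 h versus 72 h, where 9.18% of the 12541 genes tested were called. ENSBTAG00000015350 was present at lower levels at 168 h by a log2 fold change of -1.44 ± 0.36 (SE, adjusted p = 0.013), and was lower in 7 of 8 calves. Without H calf 1 the adjusted p was 0.0503, and it was 0.0583 in a fit of all 88 libraries that included the L number, the highest of 16 alternatives (lowest 0.000974). The L number is a number in the library labels whose meaning is not stated. ENSBTAG00000008021 had -1.63 ± 0.66 (adjusted p = 0.103, and 0.0454 to 0.527 over the alternatives), and -0.61 with the calf as a block. ENSBTAG00000022150 had -1.73 ± 0.85 (adjusted p = 0.177), but 0.17 without H calf 7, 0.15 by DESeq2 and -0.54 with the calf as a block, so that its sign rested on H calf 7. Both were lower in 4 of 8 calves. The 3 genes with a shared course had log2 fold changes of -0.41 to -0.60. For ENSBTAG00000011467 the value was -0.12 without H calf 1 and -0.94 with the L number.

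In LF calves 2 of 6 genes were DEG, where 14% of 12738 genes were called. ENSBTAG00000011467 changed by -2.13 ± 0.54 (SE, adjusted p = 0.0133) and ENSBTAG00000016698 by -2.26 ± 0.59 (adjusted p = 0.0149) on the log2 scale, each lower in 6 of 7 calves, LF calf 3 being the exception. Without LF calf 6 the log2 fold changes were -1.83 and -1.89 and the adjusted p was 0.0563 and 0.0661. Over all alternatives these ranged from 0.000291 to 0.105, the latter with the L number, and from 0.000485 to 0.0661. The values for ENSBTAG00000015350 were -1.04 ± 0.41 (adjusted p = 0.0719, but 0.0364 by DESeq2, 0.0296 without LF calf 2, 0.0449 without LF calf 5 and up to 0.225 over the alternatives) and for ENSBTAG00000001725 -1.49 ± 0.69 (adjusted p = 0.119), the latter -0.82 with the calf as a block. ENSBTAG00000008021 had 0.44 ± 0.51 (adjusted p = 0.527), and without LF calf 3 it had 1.29 with an adjusted p of 0.0261 (0.0261 to 0.808 over the alternatives).

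In CL calves 0 of 6 genes were DEG by edgeR, and 0.0157% of 12770 genes, 2 genes, were called. An unadjusted p under 0.05 was reached by 4 of the 6 and by 23.8% of all genes tested. ENSBTAG00000011467 had the most negative value, -2.42 ± 0.67 on the log2 scale (adjusted p = 0.103), lower in 6 of 7 calves. ENSBTAG00000016698 had -1.97 ± 0.60 (adjusted p = 0.107) and ENSBTAG00000001725 -1.98 ± 0.85 (adjusted p = 0.182), the latter -0.76 without CL calf 5 and -0.91 with the calf as a block. ENSBTAG00000015350 had -1.48 ± 0.63 (adjusted p = 0.177), and -2.16 with an adjusted p of 0.0461 without CL calf 1. DESeq2 called ENSBTAG00000011467 and ENSBTAG00000016698, with adjusted p of 0.0125 and 0.0158, among 683 genes, and over all alternatives both reached up to 0.362. Blocking on the calf called 731 genes, but none of the 6.

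Over the 6 genes the median log2 fold change at 168 h versus 72 h was -1.02 in H, -1.73 in CL and -1.33 in LF calves, beside -0.04, 0.01 and 0.04 over all genes tested. With the calf as a block these medians of the 6 were -0.57, -1.32 and -0.91. The H median was -0.53 by DESeq2, and the CL median was -0.94 without CL calf 5.

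**Figure D3:**
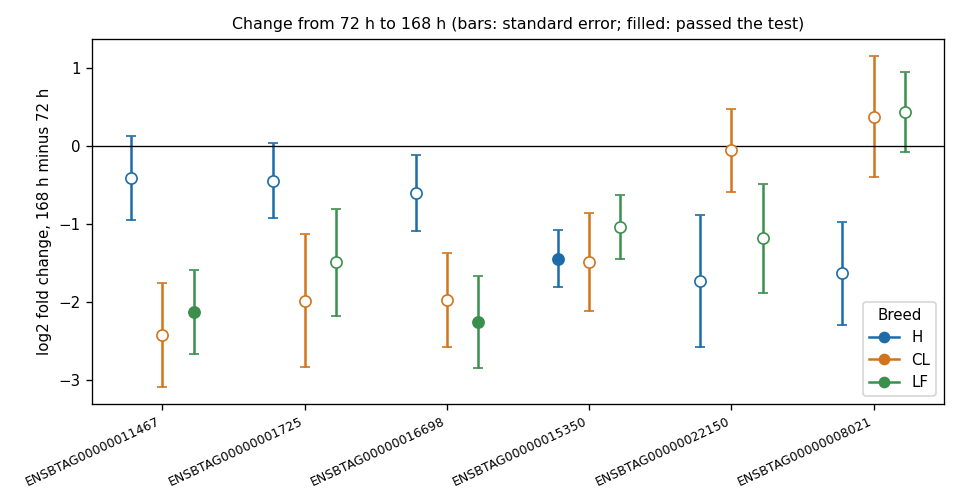
Log2 fold change of each gene at 168 h versus 72 h with its standard error, for H, CL and LF calves; values below 0 are lower at 168 h, and filled points passed the test. The upper 3 genes lie between -1.49 and -2.42 in the beef calves and between -0.41 and -0.60 in H calves, and ENSBTAG00000015350 lies between -1.04 and -1.48 in all 3 breeds.

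Whether this decay differed between breeds was tested as an interaction, and no gene of the 6 passed. The same was true of all genes, with 0% of 13137 called for H against CL, 0% of 13132 for H against LF and 0% of 13204 for CL against LF calves by edgeR. An unadjusted p under 0.05 was reached by 1, 3 and 0 of the 6 genes in these tests, and DESeq2 called none of the 6. Over all genes an unadjusted p under 0.05 was reached by 6.81%, 7.54% and 1.54%, and DESeq2 called 46, 0 and 0 genes. For ENSBTAG00000011467 the log2 fold change in H calves was above that in CL calves by 1.99 ± 0.86 (SE, adjusted p = 0.717) and above that in LF calves by 1.72 ± 0.80 (adjusted p = 0.631), and these were 1.20 and 0.64 with the L number. For ENSBTAG00000008021 the value in H calves was below that in LF calves, a difference of -2.07 ± 0.88 (adjusted p = 0.631).

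Between breeds at 72 h none of the 6 genes was a DEG. The share of all genes called was 7.27% of 12628 for H versus CL, 0.396% of 12624 for H versus LF and 0% of 12681 for CL versus LF calves (4.44% at an unadjusted p under 0.05, and 1 gene by DESeq2). No gene of the 6 reached an unadjusted p under 0.05 in these 3 comparisons, where 28.3% of all genes did for H versus CL and 18.5% for H versus LF calves, and DESeq2 called none of the 6. The largest difference was that of ENSBTAG00000008021, 1.76 ± 0.92 higher in H than in CL calves on the log2 scale (adjusted p = 0.222), and 3.16 with an adjusted p of 0.0426 once CL calf 7 was left out but 1.03 without H calf 3 (0.0426 to 0.451 over the alternatives). ENSBTAG00000001725 had -1.16 ± 0.76 for H versus CL (adjusted p = 0.333), and -0.05 both without CL calf 5 and with the L number in the fit of all 88 libraries.

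By 168 h ENSBTAG00000011467 was present at higher levels in H than in CL calves, by 1.63 ± 0.45 on the log2 scale (SE, adjusted p = 0.0263). It was the only DEG of the 6 in that comparison, where 6.67% of 12847 genes were called. The H calves ran from 3.72 to 35.3 CPM and the CL calves from 1.99 to 6.31 CPM, so the groups overlapped. The adjusted p was 0.0609 without CL calf 6, 0.0511 without CL calf 7, 0.0516 without H calf 3, 0.128 without the libraries with R in their label (an R whose meaning is not stated), 0.0727 in a fit of all 88 libraries and 0.23 with the L number in that fit, and the lowest of the 22 alternatives was 0.00167. ENSBTAG00000022150 had -1.16 ± 0.44 (adjusted p = 0.0761), and without H calf 5, the highest H calf, it was -1.61 with an adjusted p of 0.017 (0.017 to 0.346 over the alternatives).

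H versus LF calves at 168 h gave 0 of 6 DEG by edgeR, where 6.83% of 12741 genes were called. An unadjusted p under 0.05 was reached by 1 of the 6 and by 32.5% of all genes tested. ENSBTAG00000011467 had 1.17 ± 0.48 (adjusted p = 0.109) by edgeR, and DESeq2 called it with an adjusted p of 0.0493 (0.0326 to 0.759 over the alternatives). With the L number it was 0.49. Without LF calf 3 this gene had 1.58 with an adjusted p of 0.0326 and ENSBTAG00000016698 had 1.62 with an adjusted p of 0.0302 (up to 0.53 over the alternatives). Without H calf 5 ENSBTAG00000022150 had -1.30 with an adjusted p of 0.0419 (up to 0.712). CL versus LF calves gave 0 of 6 DEG by edgeR, 0 with an unadjusted p under 0.05 and 0 by DESeq2, with 0% of 12786 genes called by edgeR, 1.9% at an unadjusted p under 0.05 and 0 by DESeq2.

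Correlation between the genes was uneven. At 72 h, 3 of the 15 pairs were correlated over the 22 calves after breed means had been subtracted, all within the group of ENSBTAG00000011467, ENSBTAG00000001725 and ENSBTAG00000016698. Permutations of calves within breed (100000) gave the p-values, adjusted over the 30 pairs at both ages.

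ENSBTAG00000011467 and ENSBTAG00000016698 had r = 0.96 at 72 h (permutation p = 1e-05, the smallest the permutations can give, adjusted p = 0.00015) and rho = 0.84 (adjusted p = 0.0003). The value was 0.97 in H, 0.97 in CL and 0.94 in LF calves alone, and 0.92 without the 2 calves farthest from the median. ENSBTAG00000011467 and ENSBTAG00000001725 had r = 0.85 (permutation p = 1e-05, adjusted p = 0.00015) and rho = 0.85 (adjusted p = 0.0005), with 0.83, 0.94 and 0.94 in the breeds and 0.87 without the 2 calves. ENSBTAG00000001725 and ENSBTAG00000016698 had r = 0.81 (permutation p = 3e-05, adjusted p = 0.000225) and rho = 0.67 (adjusted p = 0.0154), with 0.82, 0.89 and 0.85 in the breeds and 0.78 without the 2 calves. So the 3 genes were high and low in the same calves in each breed.

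At 168 h, 2 of the 15 pairs passed, and 1 by rank. ENSBTAG00000011467 and ENSBTAG00000016698 had r = 0.83 (permutation p = 3e-05, adjusted p = 0.000225) and rho = 0.86 (adjusted p = 0.00045), with 0.92 in H, 0.56 in CL and 0.95 in LF calves and 0.80 without the 2 farthest calves. ENSBTAG00000011467 and ENSBTAG00000001725 had r = 0.59 (permutation p = 0.00819, adjusted p = 0.0491) but rho = 0.49 (adjusted p = 0.124). That relation was 0.87 in H and 0.74 in LF calves but -0.25 in CL calves, and 0.53 without the 2 farthest calves. ENSBTAG00000001725 and ENSBTAG00000016698 had r = 0.29 (permutation p = 0.203, adjusted p = 0.468) and rho = 0.39 (adjusted p = 0.227), with 0.80 in H, 0.64 in LF and -0.84 in CL calves.

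Without the libraries with R in their label these 5 correlations ran from 0.60 to 0.96 over 18 to 21 calves. The correlation of the 3 genes with library depth was between 0.03 and 0.25. No more than 2 calves of a breed shared an L number at these ages, too few for a value within L numbers.

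ENSBTAG00000015350 passed the test with none of the other 5 genes at 72 h, with r from -0.13 to 0.07 and adjusted p of 0.695 or more. ENSBTAG00000022150 had r = -0.34 with ENSBTAG00000011467 at 72 h (adjusted p = 0.389). By rank this relation had rho = -0.62 (adjusted p = 0.0288), and that with ENSBTAG00000016698 had rho = -0.59 (adjusted p = 0.041). ENSBTAG00000008021 had its highest r with ENSBTAG00000001725, 0.31 at 72 h (adjusted p = 0.389) and 0.48 at 168 h (adjusted p = 0.109).

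At 48 h the same group of 3 stood out, with r of 0.92, 0.86 and 0.75 over 22 calves, and ENSBTAG00000015350 had -0.35, -0.45 and -0.30 with them. These values are descriptive, because all 6 genes were chosen for being high at 48 h. At 0 h the same 3 pairs had r of 0.29, 0.19 and 0.47, at counts too low to say more.

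**Figure D4:**
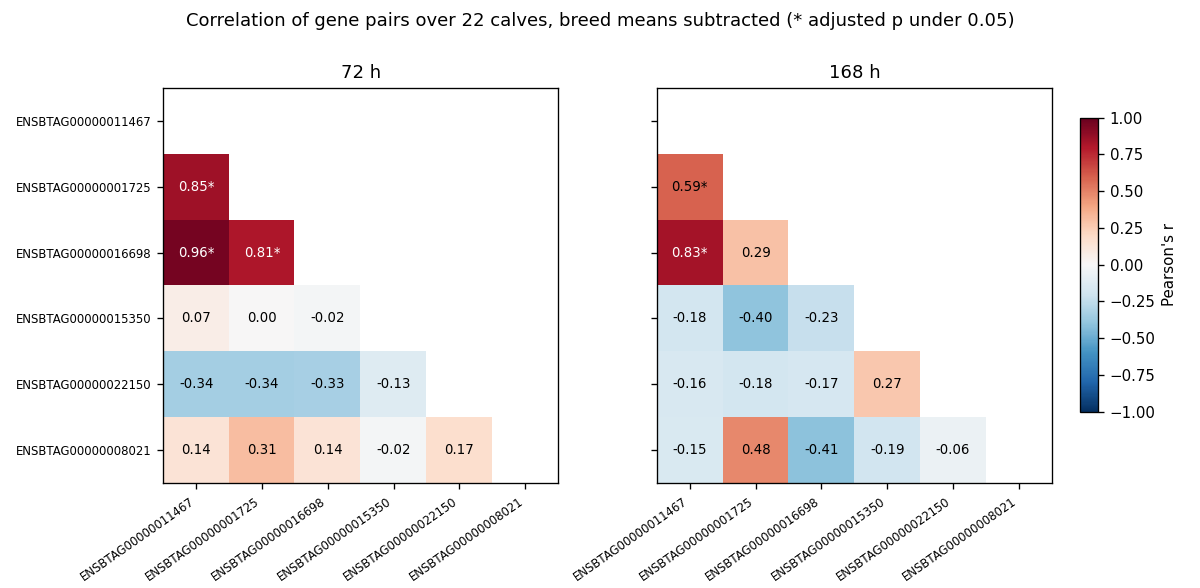
Pearson's r between each pair of the 6 genes over 22 calves at 72 h and at 168 h, from log2 CPM with breed means subtracted; red is positive, blue negative, and stars mark an adjusted p under 0.05. At 72 h the 3 pairs among the upper 3 genes have 0.81 to 0.96, and at 168 h they have 0.29 to 0.83.

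The order of calves at 72 h was compared with that at 168 h. For ENSBTAG00000011467 the correlation of the level at 72 h with that at 168 h was r = 0.53 (permutation p = 0.0136, adjusted p = 0.0816) and rho = 0.43 (adjusted p = 0.197), and 0.35 without the 2 farthest calves. The other 5 genes had r between -0.14 and 0.29, with adjusted p of 0.508 or more. A calf with a high level at 72 h was therefore not shown to be high again at 168 h for any of the 6 genes.

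Other genes followed the same courses. Over all 88 libraries, which include 4 from each calf and share breed and age, the genes most like ENSBTAG00000011467 were ENSBTAG00000007450 (r = 0.95), ENSBTAG00000016698 (0.94) and ENSBTAG00000017670 (0.94), of 13801 genes compared. Those most like ENSBTAG00000001725 were ENSBTAG00000001143 (0.95), ENSBTAG00000007867 (0.95) and again ENSBTAG00000017670 (0.94). For ENSBTAG00000016698 they were ENSBTAG00000011467 (0.94), ENSBTAG00000006549 (0.93) and ENSBTAG00000007450 (0.93). The 3 genes thus had neighbours in common, and 112, 96 and 70 genes had r over 0.8 with them. With group means subtracted, the r of these neighbours was between 0.80 and 0.91.

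ENSBTAG00000015350 had only 4 genes with r over 0.8, led by ENSBTAG00000038650 (0.84), ENSBTAG00000025130 (0.82) and ENSBTAG00000011196 (0.81). Once group means were subtracted these were 0.52, 0.54 and 0.32.

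The genes with single high calves had neighbours that were high in the same libraries. Nearest to ENSBTAG00000022150 were ENSBTAG00000001027 (0.79), ENSBTAG00000044073 (0.77) and ENSBTAG00000004014 (0.76), and 0.75, 0.73 and 0.72 remained with group means subtracted. Each of these 3 shared 4 of its 5 highest libraries with ENSBTAG00000022150, whose own were CL calves 4 and 2 at 48 h and H calf 7, LF calf 4 and CL calf 7 at 72 h. Nearest to ENSBTAG00000008021 were ENSBTAG00000007554 (0.86), ENSBTAG00000032265 (0.86) and ENSBTAG00000014297 (0.85), which shared 4, 3 and 4 of the 5 highest. These neighbours were picked by their correlation over the same libraries, so shared high libraries follow in part from that choice. Nothing further is read from the sharing. All of these correlations are descriptions and carry no test.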

How the data were processed

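Raw counts per Ensembl gene were deposited by the authors, who had trimmed the single-end reads (cutadapt in TrimGalore) and aligned and counted them with STAR on the UMD3.1 build. Tool versions are not given in the sources used here. The unstranded count was used, because the counts on each strand were 50.6% and 49.8% of it. Reads of overlapping antisense genes cannot then be told apart, and STAR leaves out reads that map to several places.

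Breed, age and calf came from the labels, all 88 libraries were kept, and the members, lists and tests were chosen with earlier results of these data known. Gene lists and blood cell markers that need symbols could not be applied. Each comparison was fitted over all genes with edgeR 4.0.16 in R 4.3.3 (TMM, default filter on low counts, robust quasi-likelihood test), with only its own groups. A gene was called a DEG at an adjusted p (Benjamini-Hochberg) under 0.05 with at least a 1.5-fold change. P-values of the fits measure the spread between calves within a group. The tests of 168 h versus 72 h and of the interaction ignored that the same calves were sampled at both ages. Only the alternative with the calf as a block used this pairing. Standard errors came from the log2 fold change divided by the root of F. A prior count of 2 entered log2 CPM, and correlations used numpy 2.4.6 and scipy 1.17.1. DESeq2 1.42.0 and the other settings of the closing section were alternatives. Scripts were tested on simulated counts. Limits on 3 counts cover counting error only.

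Libraries of different ages with the same tag number in their labels were taken to come from the same calf. Between 72 h and 168 h their deviations from the group means correlated at 0.31 in H, 0.211 in CL and 0.331 in LF calves on average, against -0.0435, -0.0347 and -0.0537 for other calves. The lowest value of a matched calf was 0.0982 in H, -0.134 in CL and 0.101 in LF calves. This check thus did not bear out every match in CL calves. In H calves 1 and 3 the sample number in the title at 168 h lay outside the run of numbers at the earlier ages. The matches of these H calves at 168 h are therefore less certain than those of the other H calves. Named genes were the 6 members, the genes at the edge of the ranking by rise at 48 h in each breed, and the 3 genes most correlated with each member over all libraries.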

Additional observations from a re-analysis of the deposited data

Results flagged for a closer look

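Single libraries that stood apart from their group on the log2 CPM scale by Dixon's test are given here as values. Of 72 groups of 7 or 8 calves (6 genes, 3 breeds and 4 ages), 9 had such a library, and chance alone gives about 5%. The groups are not independent, because the same libraries serve all 6 genes.

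H calf 5 was low at 72 h for ENSBTAG00000011467 (0.673 CPM) and for ENSBTAG00000016698 (0.224 CPM), and it was high at 0 h for ENSBTAG00000001725 (3.28 CPM). CL calf 4 was low at 0 h for ENSBTAG00000011467 (0.0393 CPM, a single count). LF calf 2 was high at 168 h for ENSBTAG00000015350 (4.6 CPM). For ENSBTAG00000008021, H calf 4 was high at 48 h (54.7 CPM), CL calf 7 was high at 0 h (0.996 CPM), and LF calf 1 was high both at 0 h (2.57 CPM) and at 48 h (41.9 CPM). The 0 h library of LF calf 1 had the fewest reads on genes of all libraries (10023822, 26.1% of its reads). Those of H calf 5 at 0 h and H calf 4 at 48 h had R in their label. Whether depth or label bears on these values was not tested. The high values of ENSBTAG00000022150 in CL calves 4 and 2 at 48 h did not stand apart by this test, because each is the other's neighbour.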

How the results depend on the processing

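The number of the 6 genes called in a comparison was recomputed under every alternative, and 235 of 258 recomputed counts stayed within 1.5 times the reported one. No called gene changed direction in any fit. DESeq2 called 2 instead of 1 in H, 2 instead of 0 in CL and 3 instead of 2 in LF calves at 168 h versus 72 h, 2 instead of 1 for H versus CL at 168 h and 1 instead of 0 for H versus LF at 168 h. A fit of all 88 libraries called 1 instead of 0 in CL calves and 0 instead of 1 for H versus CL at 168 h. With the L number in that fit the counts were 0 in H and 1 instead of 2 in LF calves at 168 h versus 72 h and 0 for H versus CL at 168 h. At least 10 counts in every sample left 1 instead of 2 in LF calves, because ENSBTAG00000016698 was not tested. Without the libraries with R in their label the count for H versus CL at 168 h was 0. The cause of the other changes was not tested.

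Leaving out each calf in turn gave 0 to 1 in H (0 without H calf 1), 0 to 1 in CL (1 without CL calf 1) and 0 to 3 in LF calves (0 without LF calf 6) at 168 h versus 72 h. Leaving out each calf gave 0 to 1 for H versus CL at 72 h, 0 to 2 for H versus CL at 168 h and 0 to 2 for H versus LF at 168 h. The calf as a replicate block left the counts at 1 in H, 0 in CL and 2 in LF calves and changed no call. By rank correlation 5 instead of 3 pairs passed at 72 h and 1 instead of 2 at 168 h. The correlation of ENSBTAG00000011467 with ENSBTAG00000001725 at 168 h was -0.25 in CL calves alone. Over all genes the block raised the count in CL calves from 2 to 731.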
